A study of Mus musculus with 4 samples.

Results

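The mouse genes whose names run from Zfp600 to Zfp999 were examined in resting CD4 T cells with and without the Ifitm gene family. Zfp stands for zinc finger protein. A gene was counted as a member when at least 1 probe set of the array was annotated to it alone, and Zfp708, Zfp759, Zfp595 and Zfp953 were left out. The rule used names only and no measured value. It gave 136 members among 19937 genes, and a gene with several probe sets was read from the one of highest mean.

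The cells were CD4 T cells of adult mouse spleen, 6 to 8 weeks old, enriched by negative selection after lysis of red cells with ammonium chloride. There were 2 arrays of wild-type (WT) mice and 2 of Ifitm-/- mice, which lack the whole Ifitm family of interferon-inducible membrane proteins and are on a C57BL/6 background. For each array a pair of mice was pooled, and each replicate was a purification of its own. Values are log2 intensities after RMA, a method that corrects background and makes the arrays' distributions alike, so each change is relative to the whole array.

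Most numbered Zfp genes encode C2H2 zinc finger proteins, in which repeated fingers, each folded around a zinc ion, read DNA. Many of these proteins also carry a KRAB domain, which binds Trim28. Trim28 brings in the histone methyltransferase Setdb1, heterochromatin proteins and histone deacetylases, and together they silence transposable elements and nearby genes. Such genes arose by tandem duplication and often lie side by side. The name covers other proteins as well. Zfp638 is a large RNA- and DNA-binding nuclear protein, Zfp622 takes part in ribosome assembly, and Zfp706 is a very small protein.

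The labels were first checked. Ifitm3 was at 9.26 and 8.91 on the WT arrays and at 4.61 and 4.36 on the Ifitm-/- arrays, with no overlap. Xist, the RNA of the inactive X, was at 11.32 and 11.25 on WT and at 4.86 and 4.43 on Ifitm-/- arrays, while the Y-linked Eif2s3y was at 3.90 and 4.05 on WT and at 9.48 and 9.61 on Ifitm-/- arrays. Sex and genotype therefore cannot be told apart on these arrays. Only Zfp711 of the members lies on X, and none was placed on Y. The deleted Ifitm genes on Ifitm-/- arrays, Y-linked transcripts on WT arrays and Xist on Ifitm-/- arrays gave 24 values of transcripts the cells lack, from 3.90 to 6.47, which are called the absent range here. The upper end is set by Ifitm5, at 6.47 and 6.20 on the Ifitm-/- arrays and at 6.50 and 6.47 on the WT arrays. The values of the other genes were 6.05 or lower, so counts of values within the range depend on Ifitm5. Background differs between probe sets, so a value in this range does not show that a transcript is missing.

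The markers of CD4 T cells, of which 8 of 11 were measured, averaged 11.66 and 11.68 on the WT and 11.74 and 11.70 on the Ifitm-/- arrays, with 3 of the 8 called higher and 2 lower. B cell markers averaged 9.19 and 7.60 on WT and 7.42 and 8.03 on Ifitm-/- arrays, and 0 of the 11 measured were called (0 at an unadjusted p under 0.05). Plasma cell markers averaged 8.75 and 8.41 against 7.71 and 7.74, with 1 of 6 called lower and all 6 lower at an unadjusted p under 0.05. Erythroid markers averaged 8.07 and 9.05 against 9.72 and 9.58, with 0 of 4 called by limma (1 at an unadjusted p under 0.05). Platelet markers averaged 8.99 and 8.54 against 9.15 and 10.47, with 0 of 4 called (1 at an unadjusted p under 0.05). Of the 8 NK markers measured, 1 was called lower (3 higher and 1 lower at an unadjusted p under 0.05). Of the 8 neutrophil markers, 1 was called higher, also the only one at an unadjusted p under 0.05. Of the 2 CD8 and 9 myeloid markers, 0 were called (1 of each list at an unadjusted p under 0.05). Between 0 and 5 markers of each list had values within the absent range. The part of these other cells in the members' changes was not tested. A change per cell and a change in the make-up of the cells cannot be told apart in bulk RNA.

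Zinc finger genes were more often higher than lower in Ifitm-/- cells. Of the 136 members, 36 (26.5%) were called higher and 3 (2.21%) lower at an adjusted p under 0.05 by limma. Over all 19937 genes, 4.96% were called higher and 3.61% lower, 8.57% together. The other 97 members were not called. The change, Ifitm-/- minus WT on the log2 scale, was above 0 for 98 members and below 0 for 38. Its median was 0.17 over the members and -0.02 over all genes, and the members' quartiles were -0.01 and 0.61. In the 36 that rose the change ran from 0.48 to 1.79, with a median of 0.95. The values of all 39 called members did not overlap between the genotypes. With 2 arrays per genotype a call in this fit requires that, so it adds nothing to the call. Both Ifitm-/- arrays lay above both WT arrays for 78 members (57.4%), against 27.9% of all genes, and below both for 19, against 30.8% of all genes.

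A further filter of the study's methods asks for more than a 2-fold change and for arrays that span 250 linear units or more. With it, 4 of the 136 members were higher and 0 lower. Over all genes, 0.431% were higher, 0.853% lower and 1.28% in either direction. The 4 members past the filter were Zfp930, Zfp971, Zfp638 and Zfp825. Without the filter, 60 members were higher and 5 lower at an unadjusted p under 0.05 by limma. Of all 19937 genes, 2854 were higher and 2292 lower in that way. The methods' t-test without adjustment gave 47 members higher and 8 lower, against 19.6% of all probe sets in either direction. The smallest p an exact permutation test can give for 2 arrays against 2 is 0.333, so the calls rest on the model fitted across all probe sets. With any 1 array left out, with the replicate number as a block, or with the methods' t-test after Benjamini-Hochberg adjustment, 0 members were called. All 39 called members kept the direction of their change without any of the 4 arrays. Values that do not overlap between the genotypes fix this in advance, so it adds no support.

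**Figure D1:**
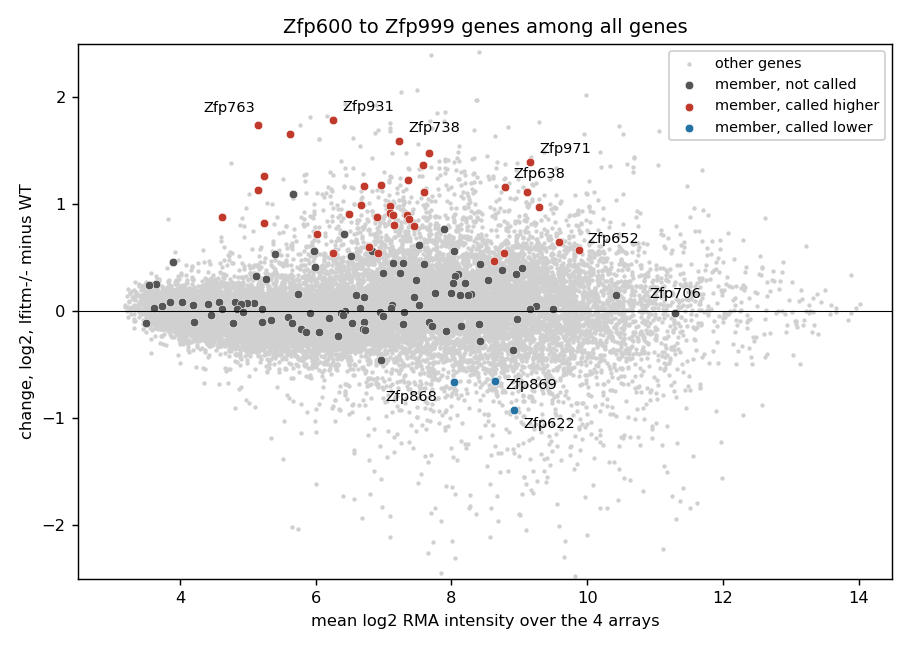
Change (Ifitm-/- minus WT, log2) against mean log2 RMA intensity over the 4 arrays for all 19937 genes, with 1 point per gene. The 136 members are in dark grey, red (36 called higher) or blue (3 called lower), other genes are in light grey, and 26 genes lie outside the plotted range of change. The red points lie at mean intensities between 4.62 and 9.87.

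**Figure D2:**
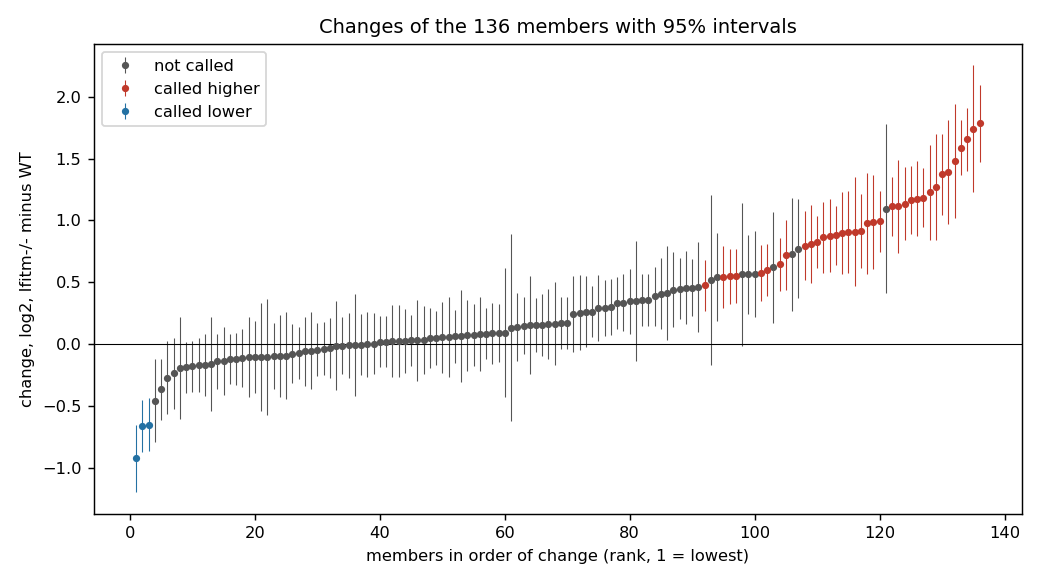
Change (Ifitm-/- minus WT, log2) of each of the 136 members in order of size, with the 95% interval of limma's fit as a bar. Members called higher take up the right end, 98 members lie above 0, and the 3 called lower are the lowest.

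The 12 members of largest rise had WT values between 4.10 and 8.56 and changes of 1.17 or more. Zfp931 was at 5.47 and 5.26 on the WT arrays and at 7.07 and 7.22 on the Ifitm-/- arrays. The WT values lay within the absent range and both Ifitm-/- values above it, and the change was 1.79 ± 0.12 (SE, n = 2 per group; adjusted p = 0.0136). No fold is read from it, nor an order among the rises, since background may make up much of such WT values. Zfp971, its neighbour on chromosome 2, was at 8.56 and 8.37 on WT and at 10.04 and 9.68 on Ifitm-/- arrays. It rose by 1.39 ± 0.16 (adjusted p = 0.0219), and both Ifitm-/- arrays were higher by more than the replicates of either genotype differed. These 2 are among 18 members that are also named by probe sets shared with other genes, so part of their signal may come from near-identical copies.

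Zfp738, on chromosome 13, had the smallest adjusted p of the members. It was at 6.42 and 6.45 on WT and at 7.98 and 8.07 on Ifitm-/- arrays. Both WT values lay at the upper end of the absent range. The replicates were close and the genotypes far apart, and the gene rose by 1.59 ± 0.08 (adjusted p = 0.0115). Its 3 probe sets were all called higher, with changes of 1.59, 1.38 and 0.67. Zfp738 lies in the long run of zinc finger genes next to Rsl1. The run's other member, Zfp748, was at 7.88 and 7.61 on WT and at 8.30 and 8.33 on Ifitm-/- arrays and was not called (change 0.56 ± 0.12, adjusted p = 0.0654).

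Zfp763 was at 4.44 and 4.10 on WT and at 5.82 and 6.21 on Ifitm-/- arrays, a change of 1.74 ± 0.19 (adjusted p = 0.0213). Zfp873 was at 4.86 and 4.72 on WT and at 6.39 and 6.50 on Ifitm-/- arrays, a change of 1.66 ± 0.10 (adjusted p = 0.0131). In both genes the genotypes were well apart, but most values lay within the absent range. Zfp930 was at 7.13 and 6.73 on WT and at 8.52 and 8.30 on Ifitm-/- arrays, and Zfp935 at 7.03 and 6.76 on WT and at 8.29 and 8.24 on Ifitm-/- arrays. All 8 of these values were above the absent range. The rises were 1.48 ± 0.17 for Zfp930 (adjusted p = 0.0232) and 1.37 ± 0.12 for Zfp935 (adjusted p = 0.0161), and Zfp935 also shares probe sets with other genes.

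Zfp719 was at 6.90 and 6.60 on WT and at 7.88 and 8.08 on Ifitm-/- arrays, a rise of 1.23 ± 0.14 (adjusted p = 0.0233). Zfp677 was at 6.30 and 6.43 on WT, within the absent range, and at 7.56 and 7.54 on Ifitm-/- arrays. Its rise was 1.18 ± 0.09 (adjusted p = 0.0141). The lowest Ifitm-/- value of each gene exceeded its highest WT value. Zfp825, chosen after its values were seen because it passed the stricter filter, was at 8.52 and 8.58 on WT and at 9.84 and 9.50 on Ifitm-/- arrays. Its 2 probe sets rose alike, by 1.11 and 1.17.

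**Figure D3:**
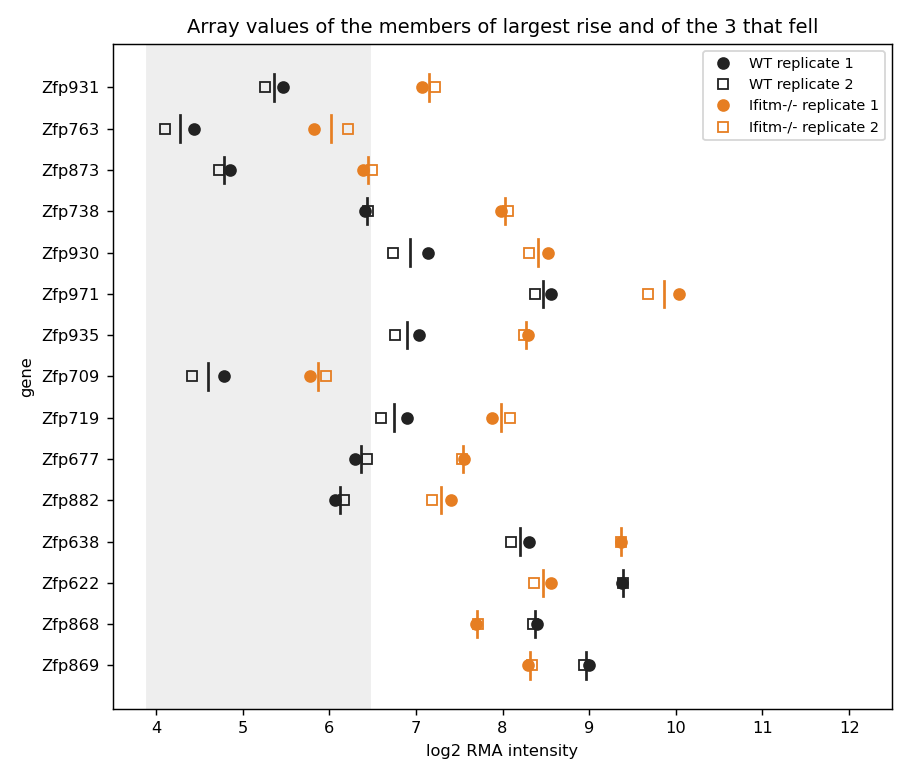
Log2 RMA intensity on each of the 4 arrays for the 12 members of largest rise and the 3 that fell. Filled circles are replicate 1, open squares replicate 2, vertical ticks the genotype means and the grey band the absent range of 3.90 to 6.47. WT and Ifitm-/- values are apart in every gene shown, as the rule that chose these genes asks. The WT values of several risers lie in the band.

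Changes of dim members are harder to read, since background is part of every value. The WT mean of 59 members lay within the absent range, among them 15 of the 36 that rose. In 7 of the 36 both genotypes' means did so, and in 21 both were above it. Split by the mean over all 4 arrays, 84 members lay above the range, with 27 called higher and 3 lower, against 9.12% higher and 6.87% lower of all genes split in the same way. The 52 members at or below it held 9 called higher (17.3%) and 0 lower (0 at an unadjusted p under 0.05 as well). Of the 989 genes called higher among all 19937, 893 were among the 9796 above the range. Of the 719 called lower, 673 were. Few genes of the dim part were thus called in either direction. A rise itself adds to this mean, so the split is a description.

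The 3 members that fell were all well above the absent range. Zfp622, which escorts a late precursor of the large ribosomal subunit, was at 9.38 and 9.39 on WT and at 8.56 and 8.36 on Ifitm-/- arrays. It fell by 0.93 ± 0.10 (adjusted p = 0.0215), or 1.90-fold, with no overlap. Zfp868 was at 8.40 and 8.35 on WT and at 7.69 and 7.72 on Ifitm-/- arrays, and Zfp869 at 9.0 and 8.94 on WT and at 8.29 and 8.34 on Ifitm-/- arrays. These 2 genes stand close together on chromosome 8 and fell by nearly the same amount, 0.66 ± 0.08 (adjusted p = 0.0237) and 0.65 ± 0.08 (adjusted p = 0.0255). Zfp866, in the same run and named after its values were seen, was at 7.28 and 7.49 on WT and at 7.76 and 7.88 on Ifitm-/- arrays. Its change had the opposite sign and was not called (0.44 ± 0.11, adjusted p = 0.0962).

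Among members of known role, several bright genes rose. Zfp638 works with the HUSH complex to silence unintegrated retroviral DNA. It was at 8.31 and 8.10 on WT and at 9.36 and 9.37 on Ifitm-/- arrays, a rise of 1.17 ± 0.10 (adjusted p = 0.0161). Zfp652, a repressor that pairs with ETO family corepressors, was at 9.64 and 9.53 on WT and at 10.17 and 10.15 on Ifitm-/- arrays. It rose by 0.57 ± 0.08 (adjusted p = 0.0341). Zfp831, studied in follicular helper T cells, was at 9.30 and 9.23 on WT and at 9.91 and 9.91 on Ifitm-/- arrays. It rose by 0.64 ± 0.08 (adjusted p = 0.026). In these 3 genes the pairs of replicates were closer than the genotypes.

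Zfp985 was at 8.94 and 8.67 on WT and at 9.92 and 9.64 on Ifitm-/- arrays, a rise of 0.98 ± 0.15 (adjusted p = 0.0378). Its second probe set lay between 3.82 and 4.15 on the 4 arrays and was not called (change 0.30, adjusted p = 0.0926), and the gene shares probe sets with others. Zfp809, a KRAB protein that recognises the primer binding site of murine leukaemia viruses and silences them, was at 8.79 and 8.78 on WT and at 9.04 and 9.22 on Ifitm-/- arrays. Its values did not overlap, but the change of 0.35 ± 0.10 was not called (adjusted p = 0.116, 95% interval 0.08 to 0.61).

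Other bright members gave narrow intervals around 0. Zfp706, the brightest, was at 11.39 and 11.20 on WT and at 11.30 and 11.27 on Ifitm-/- arrays (change -0.01, 95% interval -0.27 to 0.25). Zfp800 was at 9.49 and 9.47 on WT and at 9.52 and 9.49 on Ifitm-/- arrays (0.02, interval -0.19 to 0.23), and Zfp871 at 10.29 and 10.40 against 10.50 and 10.49 (0.15, interval -0.08 to 0.38). Zfp692 and Zfp703, which is known from breast epithelium, had changes of -0.12 and -0.14 and were not called. Zfp711, an X-linked partner of the demethylase Phf8, and Zfp750, known from skin differentiation, lay wholly within the absent range, at 4.11 to 4.33 and 5.49 to 5.75, so their changes of 0.06 and -0.05 say little. Of the 97 members not called, 57 had a 95% interval within 0.5 of 0 and 26 had an unadjusted p under 0.05, 24 of these with the higher value in Ifitm-/- cells. The interval of 6 reached above 1. Over all 19937 genes, 18229 were not called. At an unadjusted p under 0.05 by limma, 2854 of all genes were higher, 989 of them called, and 2292 lower, 719 of them called. A low unadjusted p was thus common among genes not called.

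Neighbouring genes were then compared, with the order of genes taken from the assembly GRCm38.p6. A member was counted as beside a zinc finger gene when the next protein-coding gene on either side was named Zfp, Zscan, Zkscan or Rex2. This held for 78 members, of which 24 (30.8%) were called higher and 2 lower, with a median change of 0.33. Of the 57 with no neighbour of such a name, 12 (21.1%) were called higher and 1 lower, with a median of 0.08. The rule reads names only, so these 57 may still lie beside zinc finger genes named otherwise. Zfp873, for example, lies between Gm19802 and BC024063. Zfp640 could not be placed. Neighbours were not independent, and the difference between both kinds was not tested.

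The 177 genes Zfp1 to Zfp599, read by the same rule, gave 34 called higher (19.2%) and 6 lower (3.39%), with a median change of 0.15. Split by neighbours in the same way, they differed in the same direction as the members. The 87 beside a zinc finger gene held 21 called higher (24.1%) and 3 lower, with a median of 0.25. The 89 not beside one held 13 called higher (14.6%) and 3 lower, with a median of 0.02. By name, the 78 members Zfp600 to Zfp799 held 17 called higher and 1 lower (median 0.15), and the 58 members Zfp800 to Zfp999 held 19 called higher and 2 lower (median 0.35). The difference between these name classes was not tested.

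**Figure D4:**
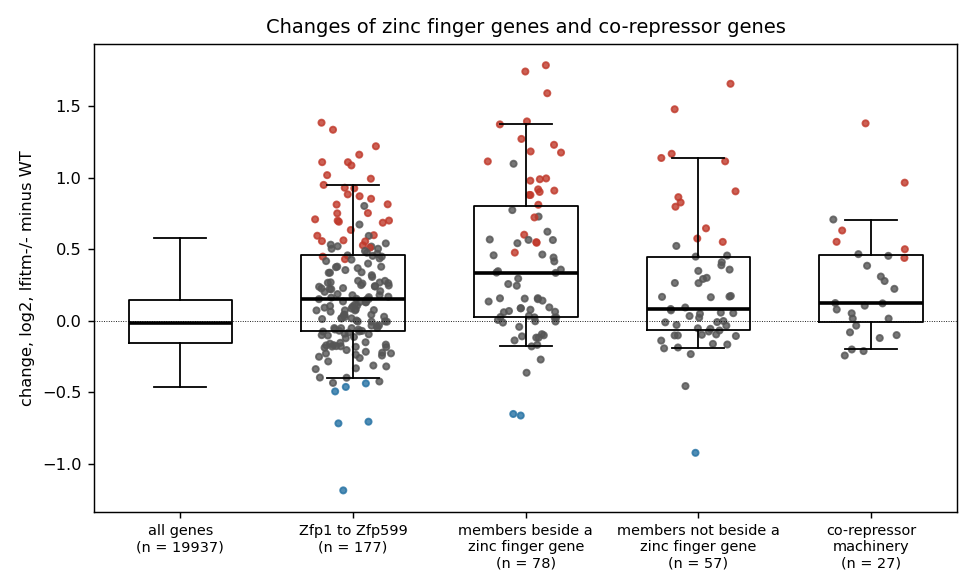
Change (Ifitm-/- minus WT, log2) of all genes, of Zfp1 to Zfp599, of members beside and not beside another gene of zinc finger name, and of the co-repressor list. Boxes give the quartiles and median, whiskers the 5th and 95th percentiles, and points single genes (red higher, blue lower, grey not called; points are not drawn for all genes). The medians are -0.02, 0.15, 0.33, 0.08 and 0.12 from left to right.

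On chromosome 8 a run of 4 zinc finger genes, Zfp709, Zfp882, Zfp617 and Zfp961, rose throughout. Zfp709 was at 4.79 and 4.42 on WT and at 5.77 and 5.97 on Ifitm-/- arrays, all within the absent range, a change of 1.27 ± 0.16 (adjusted p = 0.0265). Zfp882 was at 6.07 and 6.17 on WT and at 7.41 and 7.18 on Ifitm-/- arrays, a change of 1.17 ± 0.11 (adjusted p = 0.018). Their neighbours, named after their values were seen, rose as well. Zfp617 was at 6.21 and 5.86 on WT and at 6.83 and 7.06 on Ifitm-/- arrays (0.91 ± 0.16, adjusted p = 0.0484), and Zfp961 at 7.0 and 7.08 on WT and at 8.09 and 8.21 on Ifitm-/- arrays (1.11 ± 0.09, adjusted p = 0.0146). The genotypes did not overlap in any of the 4, and the WT values of Zfp882 and Zfp617 also lay within the absent range. The run that holds Zfp868 and Zfp869, which fell, lies on the same chromosome.

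Other runs were mixed. On chromosome 17, 2 of 3 members of the run from Zfp677 to Zfp983 were called higher (median 0.90), 1 of 5 of the run from Zfp760 to Zfp994 (median 0.48) and 0 of 4 of the run from Zfp871 to Zfp870 (median 0.11). The run of largest membership, 7 members on chromosome 4 from Zfp980 to Zfp933, had 2 called higher and all 7 changes above 0, from 0.07 to 0.98. On chromosome 6, 0 of 3 members from Zfp786 to Zfp746 were called, with a median of -0.10. By chromosome, 7 of 33 members on chromosome 7, 6 of 19 on 17, 6 of 14 on 8, 4 of 6 on 2 and 3 of 4 on 13 were called higher, as were 1 of 9 on 11, 2 of 9 on 4, 2 of 8 on 9, 1 of 7 on 6, 1 of 7 on 15, 1 of 5 on 5, 0 of 4 on 3 and 1 of 3 on 10. Of the 7 chromosomes with a single member, 1 had it called higher, namely Zfp950 on 19. Over all genes of each of these chromosomes, between 3.38% and 7.51% were called higher. Zfp941, which stands near the deleted Ifitm cluster on chromosome 7, was at 4.45 and 4.51 on WT and at 4.44 and 4.44 on Ifitm-/- arrays, within the absent range.

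**Figure D5:**
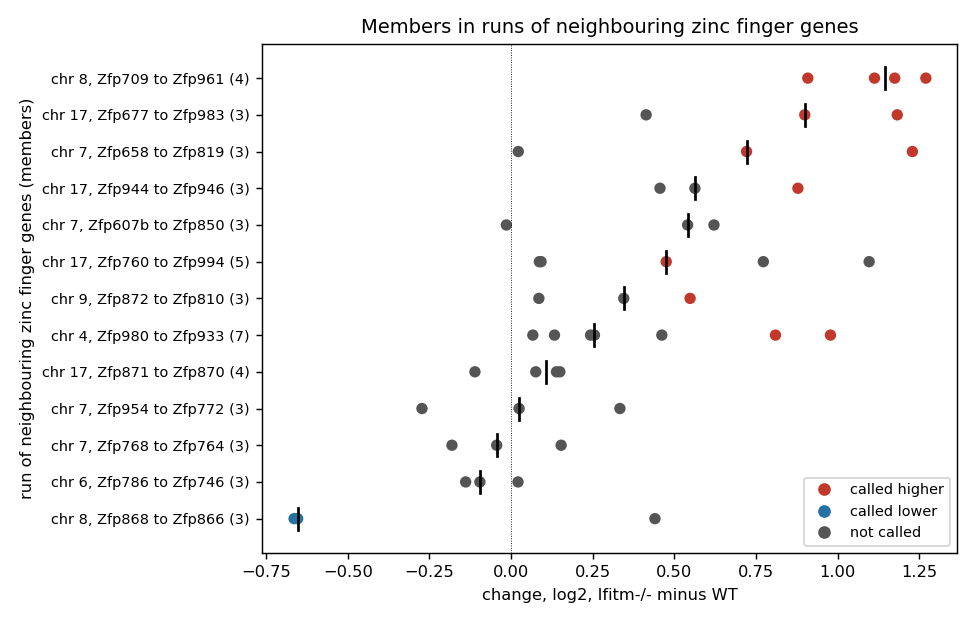
Change (Ifitm-/- minus WT, log2) of the members in each run of neighbouring zinc finger genes that holds 3 or more members. Points are genes (red called higher, blue called lower, grey not called), bars are medians, and the number of members is in brackets. The 4 members of the run from Zfp709 to Zfp961 lie between 0.91 and 1.27, and the run from Zfp868 to Zfp866 holds both members that fell and 1 on the other side of 0.

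The promoters are shown for the neighbours that moved together. RefSeq promoters of GRCm38.p6 were found for 118 members, 146 promoters in all, and the 250 bases before each start were read. All 8-base words were counted without regard to the array values, and 2 motifs were then chosen from the words in excess over all promoters. Others were also frequent, such as GGGCGG, the core of the Sp1 motif (or CCGCCC on the other strand), which stood in 43.8% of member promoters and 32.7% of all. GAGTGACA, or TGTCACTC on the other strand, stood in 21 member promoters (14.4%), in 4.74% of the promoters of Zfp1 to Zfp599 and in 1.37% of all 32851 promoters. CCAATCA, which holds the CCAAT box bound by NF-Y, or TGATTGG on the other strand, stood in 36 (24.7%), against 11.6% and 7.23%. The motifs do not overlap.

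Zfp931 and Zfp971, the neighbouring pair that rose, have nearly the same promoter, with 96.4% identical bases over 220 aligned ones. The sequences run 5′ to 3′ on the gene's strand and end at the base before the start, with both motifs in capitals.
Zfp931 (chr2:178078426-178078675, - strand): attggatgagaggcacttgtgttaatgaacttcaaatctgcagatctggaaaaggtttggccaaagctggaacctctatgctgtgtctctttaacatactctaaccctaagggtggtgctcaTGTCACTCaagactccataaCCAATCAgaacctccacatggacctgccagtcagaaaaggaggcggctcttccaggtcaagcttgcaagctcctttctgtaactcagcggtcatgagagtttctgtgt
Zfp971 (chr2:178023034-178023283, + strand): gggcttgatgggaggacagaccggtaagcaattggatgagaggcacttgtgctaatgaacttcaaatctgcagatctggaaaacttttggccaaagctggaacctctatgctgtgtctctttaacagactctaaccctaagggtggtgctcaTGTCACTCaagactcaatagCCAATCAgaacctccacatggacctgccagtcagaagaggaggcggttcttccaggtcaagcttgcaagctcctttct

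Zfp868 and Zfp869 fell, and Zfp866 of the same run had a change above 0 that was not called. For Zfp868 the first of its 2 promoters is shown, since the second holds neither motif.
Zfp868 (chr8:69625549-69625798, - strand): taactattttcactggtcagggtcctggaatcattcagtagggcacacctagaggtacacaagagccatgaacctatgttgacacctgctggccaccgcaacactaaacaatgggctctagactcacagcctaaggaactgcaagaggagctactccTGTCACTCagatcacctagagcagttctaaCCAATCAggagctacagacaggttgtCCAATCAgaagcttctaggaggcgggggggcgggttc
Zfp869 (chr8:69716903-69717152, - strand): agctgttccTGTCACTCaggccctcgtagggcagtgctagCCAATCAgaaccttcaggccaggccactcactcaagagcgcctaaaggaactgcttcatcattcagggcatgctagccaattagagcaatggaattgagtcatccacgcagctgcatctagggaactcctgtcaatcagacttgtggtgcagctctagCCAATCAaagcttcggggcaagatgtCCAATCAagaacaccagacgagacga
Zfp866 (chr8:69774912-69775161, - strand): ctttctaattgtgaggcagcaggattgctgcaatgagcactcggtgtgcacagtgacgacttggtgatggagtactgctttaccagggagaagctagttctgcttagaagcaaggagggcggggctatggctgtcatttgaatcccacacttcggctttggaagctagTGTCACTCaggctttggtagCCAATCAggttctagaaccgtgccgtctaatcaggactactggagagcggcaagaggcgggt

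The same pair of motifs in the same order thus stood in promoters of genes that rose, of genes that fell and of a gene that was not called. In the 15 member promoters with both motifs, TGTCACTC was followed by CCAATCA on the same strand in 14, after 12 to 32 bases. By call, GAGTGACA was in 16.2% of the 37 promoters of members called higher and 12.4% of the 105 of members not called, and CCAATCA in 40.5% and 18.1%. Of the 4 promoters of members called lower, 2 held each motif. These shares are descriptions, and several promoters belong to 1 gene or to related copies. In the run on chromosome 8 that rose throughout, Zfp882, Zfp617 and Zfp961 held CCAATCA alone and Zfp709 neither motif.
Zfp882 (chr8:71908356-71908605, + strand): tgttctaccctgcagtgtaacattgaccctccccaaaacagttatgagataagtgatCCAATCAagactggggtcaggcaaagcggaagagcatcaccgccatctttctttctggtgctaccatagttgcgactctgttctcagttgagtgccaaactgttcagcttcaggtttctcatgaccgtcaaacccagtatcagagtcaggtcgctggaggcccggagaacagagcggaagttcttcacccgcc
Zfp617 (chr8:71922575-71922824, + strand): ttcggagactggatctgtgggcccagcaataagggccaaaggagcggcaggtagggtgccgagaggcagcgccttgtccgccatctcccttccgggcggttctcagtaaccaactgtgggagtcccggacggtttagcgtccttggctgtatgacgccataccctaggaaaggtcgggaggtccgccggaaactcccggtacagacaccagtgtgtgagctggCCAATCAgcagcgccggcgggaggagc
Zfp961 (chr8:71950816-71951065, + strand): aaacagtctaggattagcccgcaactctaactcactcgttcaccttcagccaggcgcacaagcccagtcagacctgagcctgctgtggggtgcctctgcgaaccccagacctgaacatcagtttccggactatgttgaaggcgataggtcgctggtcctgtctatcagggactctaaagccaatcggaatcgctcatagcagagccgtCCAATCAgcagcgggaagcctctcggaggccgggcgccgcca

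Genes of the machinery that KRAB proteins recruit and of related silencing were listed apart from the members. The list also holds HUSH, Morc and DNA methyltransferase genes, among others, so its counts are not those of the KRAB machinery alone. Of 27 listed genes measured, 6 (22.2%) were called higher and 0 lower by limma, against 4.96% and 3.61% of all genes, with a median change of 0.12. Among genes whose mean lay above the absent range, as that of most of these genes did, the share called higher was 9.12%. The list was written with earlier results of these data known. The study's own list of genes of interest from these arrays names Morc3, Atf7ip, Hdac1 and Trim33, which are among those called. The share is therefore a description and not an independent result. Trim28, the hub that KRAB domains bind, was at 9.68 and 9.88 on WT and at 9.58 and 9.50 on Ifitm-/- arrays and was not called (-0.25 ± 0.10, adjusted p = 0.233). Setdb1, which methylates histone H3 at the silenced sites, was at 8.09 and 8.12 on WT and at 8.38 and 8.60 on Ifitm-/- arrays and was not called (0.38 ± 0.11, adjusted p = 0.112). The 2 genes thus had changes of opposite sign.

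Tasor, the scaffold of the HUSH silencing complex, was at 8.15 and 8.05 on WT and at 9.61 and 9.35 on Ifitm-/- arrays and rose by 1.38 ± 0.12 (adjusted p = 0.016). Its partner in HUSH, Pphln1, was not called (0.08 ± 0.10, adjusted p = 0.666). Morc3, an ATPase of heterochromatin, was at 9.12 and 8.96 on WT and at 10.03 and 9.98 on Ifitm-/- arrays and rose by 0.96 ± 0.09 (adjusted p = 0.0187). Atf7ip, which stabilises Setdb1, rose by 0.63 ± 0.08 (adjusted p = 0.026) and Hdac1, a histone deacetylase, by 0.50 ± 0.08 (adjusted p = 0.0375). Cbx3, a heterochromatin protein, and Trim33 were the other 2 called, with changes of 0.55 and 0.44. At an unadjusted p under 0.05 by limma, 12 genes of the list were higher and 0 lower, against 2854 and 2292 of all 19937 genes. By the methods' t-test without adjustment, 1 gene of the list was lower.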

How the data were processed

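Microarrays of CD4 T cell RNA (Affymetrix Mouse Gene 1.0 ST, 2 WT and 2 Ifitm-/-) were deposited by the authors as RMA intensities on the linear scale. The submitters' processing notes name RMA and affy, with versions not given in the sources used here. For the 34760 probe sets, log2 values were fitted by lmFit and eBayes (limma 3.58.1, R 4.3.3; Ifitm-/- against WT without covariates) and adjusted by the method of Benjamini and Hochberg over all of them. Of these probe sets the platform annotation names 1 gene in 21640 cases, more than 1 in 1321 and no gene in 11799. The number of arrays limits the precision. Arrays of a genotype correlated at 0.991 or more, and the deviations of same-numbered arrays at r = -0.12. With 2 arrays per genotype the deviations mirror each other, so this value cannot tell whether arrays were paired.

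The members and lists were chosen with earlier results of these data known. Genes were named by rule: the 12 largest rises and the falls among called members whose genotypes did not overlap, the 6 brightest, members of known role, and of the co-repressor list the 4 called of smallest p with Trim28 and Setdb1. Others were named after their values were seen. Zfp683 and Zfp804a were not members and were not analysed here, nor were 20 genes of the number range that only probe sets of several genes name. Classes of members by protein sequence were not analysed here. The fit was tested on simulated data. Alternatives are given with their effect in the closing section.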

Additional observations from a re-analysis of the deposited data

How the results depend on the processing

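The counts of calls depended on the test. With the replicate number as a block, 0 members (0 higher, 0 lower, 0 past the fold and range filter), 0 genes of Zfp1 to Zfp599 (0 higher, 0 lower) and 0 co-repressor genes (0 higher) were called. In that fit 56 members were higher and 5 lower at an unadjusted p under 0.05, as were 23.1% of all probe sets in either direction. The labels do not say whether replicate numbers pair the arrays, and the r = -0.12 of same-numbered arrays cannot decide it. The crossed pairing, chosen after seeing the data, called 19 members (18 higher, 1 lower, 2 past the filter), 16 genes of Zfp1 to Zfp599 (15 higher, 1 lower) and 2 co-repressor genes (2 higher). Without adjustment, the methods' t-test gave 47 members higher and 8 lower, 68 genes of Zfp1 to Zfp599 (18 lower) and 10 co-repressor genes (1 lower). After Benjamini-Hochberg adjustment it called 0 in each of these groups and directions. Of all probe sets, 19.6% had an unadjusted p under 0.05 by that t-test in either direction. Leaving out 1 array in turn called 0 to 0 members, 0 to 0 genes of Zfp1 to Zfp599 and 0 to 0 co-repressor genes, with the lone array assumed to vary like the other group, and fewer samples entered each fit. The median change over members was 0.17 and ran from 0.18 to 0.24 over the fits with 1 array left out. With a filter on dim probe sets it was 0.35 over 93 members and 0.22 over the co-repressor genes, and with members above the absent range alone, 0.35 over 87 members by their higher group and 0.34 over 84 by the mean over all arrays, both chosen after seeing the data. All 3 selections let some members in through their rise and so can move the median by their construction. Median centring, a renewed quantile normalization, eBayes with trend and robust settings, probe sets of 1 gene, the probe set of lowest mean and the updated symbol kept every count of calls within 1.5 times. Among the named genes the sign turned only in 3 that were not called. Zfp706 changed from -0.011 to 0.032 with median centring and to 0.135 with its other probe set, and lay between -0.102 and 0.0798 with 1 array left out, above 0 without WT replicate 1 or Ifitm-/- replicate 2. Zfp711 changed from 0.055 to -0.0551 without Ifitm-/- replicate 2 and was at most 0.165 without another array. Zfp750 lay between -0.185 and 0.0764 with 1 array left out, above 0 without WT replicate 2. The classes by protein sequence and their score could not be run.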
